A study of Rattus norvegicus with 20 samples.

Results

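Osteopontin (Spp1), thrombospondin 4 (Thbs4), lysyl oxidase (Lox) and Spock2 are 4 genes for proteins secreted into the extracellular matrix, out of 4737 genes that had a probe set with a single gene symbol on the array. They were chosen by measured values of these same arrays, namely their higher signal in diabetic than in normal rat muscle. That difference is therefore given below as a description, with no test. A probe set is a group of short probes that report 1 transcript, and every probe set naming only 1 of these genes was taken. There were 7 of them: M14656_at for Spp1, X89963_at for Thbs4, rc_AI639294_at for Spock2, and rc_AA875582_at, rc_AI234060_s_at, S66184_s_at and S77494_s_at for Lox. All 7 passed the filter on dim probe sets, which asks for a signal above the 40th percentile of the array in at least 5 of the 20 arrays. Without the diabetic arrays, Spp1 and Lox rc_AA875582_at each lay above that level in 4 arrays, so these 2 passed only through the diabetic group.

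RNA of rat rear-leg skeletal muscle was hybridised to 1 array per sample in 4 groups of 5: untreated normal, untreated diabetic, diabetic given vanadyl sulfate, and normal given vanadyl sulfate. Vanadyl sulfate is a vanadium salt that lowers blood glucose in diabetic animals. The sources used here do not give the rat strain and age, how diabetes was produced, the muscle taken, or the dose and duration of vanadyl. Whether replicates are separate animals is not stated in the labels, so the p-values measure the spread between these samples, which may be partly technical.

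Muscle fibres lie in a collagen-rich matrix made mainly by fibroblasts. Osteopontin is a phosphorylated glycoprotein of bone that binds integrins and CD44; in injured muscle it is made by macrophages and by muscle precursor cells. Thrombospondin 4 is a calcium-binding matrix protein of tendon and muscle that takes part in matrix assembly at the junction between muscle and tendon. Lysyl oxidase is a copper enzyme that oxidises lysines of collagen and elastin, the step that starts their cross-linking. Spock2, also called testican-2, is a proteoglycan with a SPARC-like calcium-binding domain.

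The arrays were deposited on a common scale, with median signals between 377.3 and 647.8. Ckm and Acta1, the creatine kinase and actin of skeletal fibres, were at or above the 98.9th percentile of signal in every array. The correlation between arrays ran from 0.683 to 0.968 over the tested probe sets, and diabetic replicates 1 and 3 formed the closest pair. RNA quality was read from the log2 3' over 5' signal of the Gapdh and beta-actin controls. For Gapdh, normal replicates 1 and 3 had 2.90 and 2.91, vanadyl-treated diabetic replicate 1 had 3.94, and every other array at most 1.30. For beta-actin the ratio ran from 0.58 to 3.01 in normal and 0.93 to 2.52 in diabetic arrays. With vanadyl it ran from 1.20 to 2.61 in diabetic and 0.48 to 2.09 in normal arrays. Diabetic replicates 1 and 3 had beta-actin ratios of 2.30 and 2.52, so the controls did not mark the same arrays. Of 3582 genes tested, 1.34% were called higher and 0.726% lower in diabetic than in normal muscle (limma, Benjamini-Hochberg adjusted p under 0.05). Between vanadyl-treated and untreated diabetic muscle these shares were 0.0838% higher and 0.558% lower, and between treated and untreated normal muscle 0.0558% and 0%.

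The 3 genes of the set that have a promoter entry in RefSeq (GRCr8) are shown because their signals were all higher in diabetic muscle, while their values under vanadyl ranged from near normal to near diabetic. Each sequence is the 250 bases before the annotated start, 5′ to 3′ on the gene's strand, with matches to the searched motifs in capitals. The windows are chr14:5619805-5620054 on the minus strand for Spp1, chr2:25760346-25760595 on the minus strand for Thbs4 and chr20:28580012-28580261 on the plus strand for Spock2.
Spp1: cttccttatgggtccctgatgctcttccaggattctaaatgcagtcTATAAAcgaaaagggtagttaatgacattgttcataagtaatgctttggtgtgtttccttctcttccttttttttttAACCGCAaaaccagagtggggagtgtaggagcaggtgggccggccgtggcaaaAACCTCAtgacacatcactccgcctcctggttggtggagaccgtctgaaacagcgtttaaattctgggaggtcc
Thbs4: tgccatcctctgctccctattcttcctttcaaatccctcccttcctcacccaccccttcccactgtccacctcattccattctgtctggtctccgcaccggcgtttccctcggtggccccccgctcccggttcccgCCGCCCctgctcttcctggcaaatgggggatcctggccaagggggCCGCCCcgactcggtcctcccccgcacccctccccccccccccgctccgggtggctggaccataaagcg
Spock2: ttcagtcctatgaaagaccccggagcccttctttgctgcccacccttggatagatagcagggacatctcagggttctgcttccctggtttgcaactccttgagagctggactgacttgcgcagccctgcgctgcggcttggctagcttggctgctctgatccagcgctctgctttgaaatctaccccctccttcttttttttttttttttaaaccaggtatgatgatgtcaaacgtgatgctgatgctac
The Spp1 window was 46.8% G and C. It held 1 TATA box (TATAAA), beginning 204 bases before the start. It also held 2 matches to AACCNCA, a loosened form of the site of the bone regulator Runx2, which takes A or G at N. These were AACCGCA, beginning 127 bases before the start, and AACCTCA, beginning 74 bases before it, so only the first fits that site. The Thbs4 window, at 67.6% G and C, held 2 GC boxes (GGGCGG, here as CCGCCC on the other strand), beginning 114 and 69 bases before the start. The Spock2 window, at 50.8%, held none of the 5 motifs searched on both strands, which also included the CCAAT box (CCAAT) and the AP-1 site (TGANTCA). None of the searched motifs overlapped another in these windows. Of 33469 rat promoter windows of this length, 12.9% held TATAAA, 12.9% AACCNCA, 30.5% GGGCGG, 34% CCAAT and 6.34% TGANTCA. These matches describe the letters and show no binding, and the 3 windows had no motif in common.

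**Figure D1:**
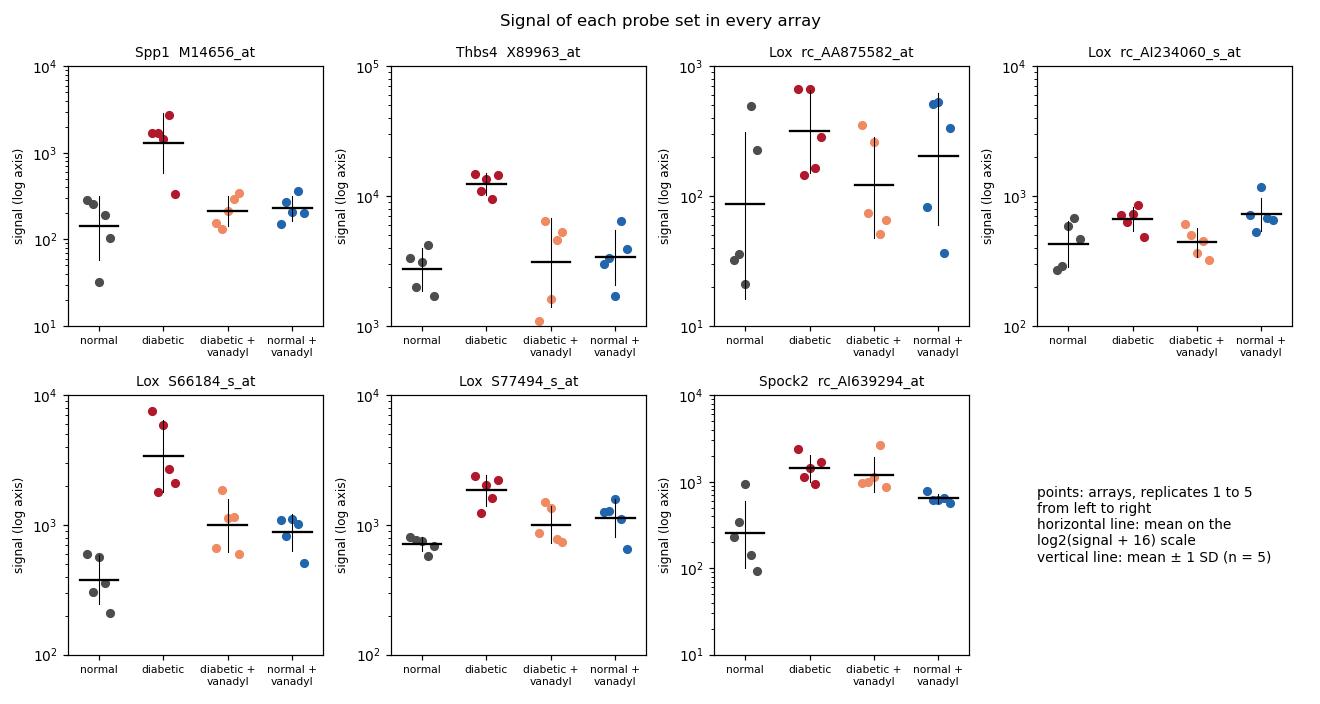
Signal of each of the 7 probe sets (log axis, arbitrary scanner units) in the 20 arrays, by group; points are replicates 1 to 5, horizontal lines the means of log2(signal + 16) and vertical lines 1 SD either side (n = 5). Diabetic arrays stand above all normal arrays for Spp1, Thbs4, Spock2, Lox S66184_s_at and Lox S77494_s_at; after vanadyl Spp1 and Thbs4 lie near the normal groups, while Spock2 stays between 863.5 and 2693.6.

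Osteopontin had an 8.43-fold higher mean signal in diabetic than in normal muscle, and its signal in vanadyl-treated diabetic muscle was 5.76-fold below the untreated diabetic mean. The normal arrays, replicates 1 to 5, read 287.3, 255.9, 31.7, 190.6 and 103.1. The diabetic arrays read 1705.1, 1679.7, 1448.6, 2772.7 and 330.5. All diabetic arrays lay above all normal arrays, although diabetic replicate 5 was only slightly above the highest normal array, and the other 4 were far above it. The vanadyl-treated diabetic arrays read 154.9, 132.2, 214.2, 291.2 and 346.2. The vanadyl-treated normal arrays read 151.9, 272.3, 207.9, 365.2 and 201.8. These groups overlapped fully with each other, and 4 of the 5 treated diabetic arrays were below every untreated diabetic array; the overlap came from diabetic replicate 5.

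On the log2(signal + 16) scale used for all differences, the Spp1 means were 7.30 ± 1.10 in normal, 10.38 ± 1.14 in diabetic, 7.85 ± 0.55 in treated diabetic and 7.94 ± 0.45 in treated normal muscle (SD, n = 5). Diabetic minus normal was 3.08 ± 0.51 (SE from the fit over all 20 arrays). Treated diabetic minus diabetic was -2.53 ± 0.51, and treated normal minus normal was 0.64 ± 0.51. The treated diabetic arrays stood 0.55 ± 0.51 above the untreated normal ones. Outside the diabetic group Spp1 was a dim probe set: it lay above the 40th percentile in 1 normal, 2 treated diabetic and 1 treated normal array, against all 5 diabetic arrays. Differences of so dim a transcript depend on the constant added before the logarithm; with a constant 16 times as large, diabetic minus normal was 1.96 and treated diabetic minus diabetic -1.77.

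Thrombospondin 4 was bright in every group and highest in diabetic muscle, 4.56-fold above normal, with a treated diabetic mean 4.02-fold below the diabetic one. Normal arrays read 3325.2, 2002.6, 3118.5, 4213.3 and 1699.6. Diabetic arrays read 14768.5, 10893.5, 13592.2, 9465.6 and 14533.1. The lowest diabetic array was above every array of the other groups, and on the log2 scale the diabetic group had the smallest spread. Treated diabetic arrays read 1088.9, 6434.2, 1623.3, 4619.1 and 5303.9. Treated normal arrays read 3010.9, 3312, 1707.5, 6470.7 and 3908.4. The treated diabetic group was the most spread on the log2 scale. Its replicates 1 and 3 were low, and its replicates 2, 4 and 5 were above every untreated normal array. Replicate 1, the lowest, also had the highest Gapdh ratio of the series, 3.94, and the part of RNA quality in its value was not tested.

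The Thbs4 means were 11.42 ± 0.54 in normal, 13.61 ± 0.28 in diabetic, 11.60 ± 1.13 in treated diabetic and 11.72 ± 0.69 in treated normal muscle (log2, SD, n = 5). The difference was 2.19 ± 0.44 for diabetic minus normal and -2.01 ± 0.44 for treated diabetic minus diabetic. It was 0.31 ± 0.44 for treated normal minus normal and 0.18 ± 0.44 for treated diabetic minus normal. Without treated diabetic replicate 1, treated diabetic minus diabetic was -1.63 and treated diabetic minus normal 0.55. With the Gapdh and beta-actin 3' to 5' ratios as covariates, diabetic minus normal was 1.57 ± 0.45. Of the 4 genes, Thbs4 alone had diabetic and treated diabetic arrays that did not overlap. Among 3582 genes, 1.98% had every diabetic array above every treated diabetic array.

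Lysyl oxidase was reported by 4 probe sets, which did not give the same size of difference. The probe set with the highest mean log2 signal, S77494_s_at, stood for the gene where 1 probe set per gene was used. Its normal arrays read 804.3, 770.3, 747, 575.5 and 692.7, and its diabetic arrays 2392.6, 1231.4, 2029.1, 1621.1 and 2232.4. Its treated diabetic arrays read 873.9, 1516.7, 1360.9, 776.3 and 739.7, and its treated normal arrays 1264.9, 1287, 1598.2, 1111.9 and 647.7. Normal muscle was tight and low, diabetic muscle was wholly above it, and both treated groups spread between them. Diabetic minus normal was 1.36 ± 0.27, a 2.56-fold higher signal, and treated diabetic minus diabetic was -0.87 ± 0.27, a 1.82-fold lower signal. Treated normal minus normal was 0.66 ± 0.27, with 4 of 5 treated normal arrays above all normal ones.

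S66184_s_at showed the largest Lox difference, 8.65-fold between diabetic and normal muscle. Normal arrays read 601.7, 302.5, 563.2, 359.6 and 210.8. Diabetic arrays read 7619.9, 1791.9, 5885.9, 2714.6 and 2098.3. Diabetic replicates 1 and 3, the closest pair of arrays in the series, were the highest by a wide margin, and all 5 were above the normal arrays. Treated diabetic arrays read 666.4, 1865.1, 1135.3, 1160.2 and 592.3. Treated normal arrays read 1083.3, 823.5, 1107.7, 1012.4 and 513. Both treated groups lay mostly above untreated normal and below untreated diabetic muscle. The log2 difference was 3.11 ± 0.41 for diabetic minus normal, -1.76 ± 0.41 for treated diabetic minus diabetic and 1.17 ± 0.41 for treated normal minus normal. Without diabetic replicates 1 and 3, a choice made after seeing the data, the first was 2.47 and the second -1.11.

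The other 2 Lox probe sets were dimmer in diabetic muscle and their groups overlapped. In normal muscle rc_AI234060_s_at was not dimmer than S66184_s_at (medians 468.3 and 359.6), and it lay above the 40th percentile in all 20 arrays. For rc_AI234060_s_at the normal arrays read 269.8, 288.5, 584.4, 678.6 and 468.3, and the diabetic arrays 717.8, 627.1, 727.5, 851.6 and 479.7. The treated diabetic arrays read 614.4, 499.3, 361.1, 452.5 and 324.3, and the treated normal arrays 708.8, 527.6, 1177.9, 680.1 and 651.5. Here treated normal and untreated diabetic muscle were the higher groups, and treated diabetic muscle was at the level of untreated normal muscle. Diabetic minus normal was 0.62 ± 0.28, treated diabetic minus diabetic -0.59 ± 0.28 and treated normal minus normal 0.73 ± 0.28. For rc_AA875582_at, above the 40th percentile in 6 arrays, the medians were 35.8, 285.9, 74.1 and 332.8 in the same order of groups. Single arrays of normal muscle ran from 20.9 to 497.3, so its diabetic minus normal value of 1.70 ± 0.79 and its treated diabetic minus diabetic value of -1.28 ± 0.79 are imprecise. Without the 3 arrays of highest Gapdh ratio the former was 0.84, and without diabetic replicates 1 and 3 it was 1.01. After group means were removed, S66184_s_at and S77494_s_at correlated at 0.65 over the 20 arrays, and the other 5 Lox pairs at -0.053 to 0.36; all share the same arrays and gene.

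Spock2 was high in diabetic muscle both without and with vanadyl, and low in untreated normal muscle. Normal arrays read 228.2, 344.6, 930.4, 141 and 93.8. Diabetic arrays read 2378.5, 1119.9, 1445.5, 946.4 and 1697.7. Every diabetic array was above every normal array, but only just: diabetic replicate 4 at 946.4 against normal replicate 3 at 930.4, while the other normal arrays were far lower. Treated diabetic arrays read 977.7, 997.5, 1147.7, 2693.6 and 863.5. Treated normal arrays read 775.2, 618.5, 607.8, 655.1 and 567.1. The treated normal group was the tightest, above 4 of the 5 untreated normal arrays and below every treated diabetic array.

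The Spock2 means were 8.08 ± 1.20 in normal, 10.51 ± 0.51 in diabetic, 10.26 ± 0.65 in treated diabetic and 9.36 ± 0.17 in treated normal muscle (log2, SD, n = 5). Diabetic minus normal was 2.43 ± 0.44, a 5.39-fold higher signal. Treated diabetic minus diabetic was -0.25 ± 0.44, or 1.19-fold lower. Treated normal minus normal was 1.28 ± 0.44, or 2.43-fold higher, and treated diabetic minus normal was 2.18 ± 0.44, with 4 of 5 treated diabetic arrays above all normal ones. With the larger constant, diabetic minus normal was 1.65. Normal replicate 3, the highest normal array for Spock2 and the lowest for Spp1, is 1 of the 3 arrays with a high Gapdh ratio; without those 3 arrays treated diabetic minus normal was 2.82. The part of RNA quality in these values was not tested.

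**Figure D2:**
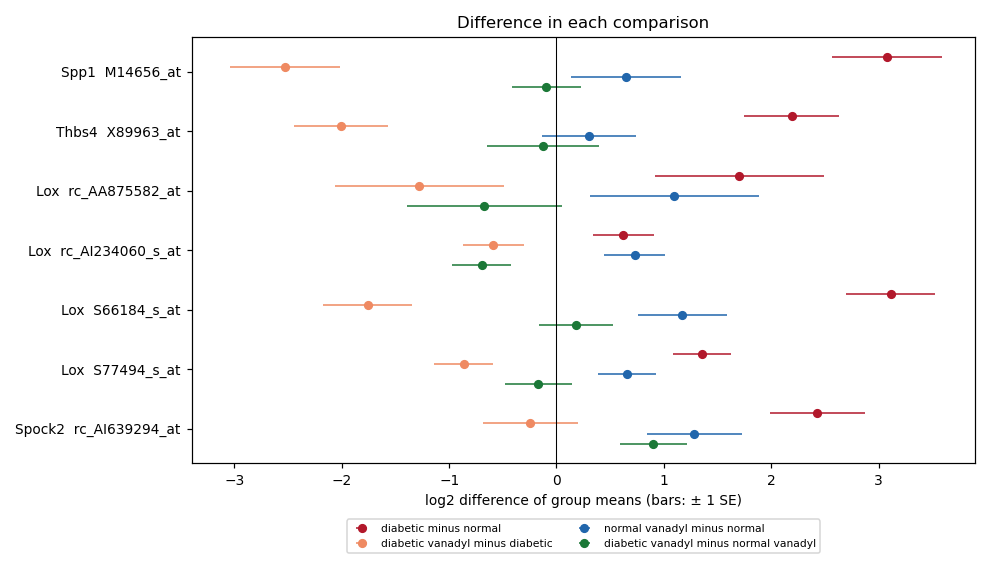
Log2 difference of group means (x axis; points, with bars of 1 SE) for each probe set in 4 comparisons. All 7 probe sets are above 0 in diabetic minus normal (0.62 to 3.11) and below 0 in diabetic vanadyl minus diabetic, where Spock2 at -0.25 is nearest to 0; in diabetic vanadyl minus normal vanadyl Spock2 is at 0.90 and Lox rc_AI234060_s_at at -0.70.

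Side by side, the 7 probe sets were higher in diabetic than in normal muscle by 0.62 to 3.11 and lower in treated than in untreated diabetic muscle by -2.53 to -0.25. They were also all higher in treated than in untreated normal muscle, by 0.31 to 1.28, beside a median of 0.17 over all genes in that comparison. In 5 of the 7 every diabetic array was above every normal array, which the choice of genes favoured; over all 3582 genes the share was 3.57%. These comparisons share the diabetic or the normal arrays, so their signs are not independent of each other or of how the genes were chosen. The difference between the diabetic effect with vanadyl and that without it was -3.17 ± 0.72 for Spp1, -2.31 ± 0.62 for Thbs4, -1.52 ± 0.38 for Lox S77494_s_at and -1.53 ± 0.63 for Spock2, again as a description. After group means were removed, the 6 pairs of the 4 genes correlated at -0.32 to 0.19 over the 20 arrays.

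The comparison that shares no array with the one that chose the genes is treated diabetic against treated normal muscle, and it was tested. With vanadyl, none of the 7 probe sets differed past the threshold, by limma on these 10 arrays with adjustment over all 6027 probe sets (adjusted p from 0.208 to 0.927). For 2 of the 7, Spp1 and Lox rc_AA875582_at, most of these 10 arrays were near background. The background was also empty: 0% of genes were called higher and 0% lower, although 1029 of 6027 probe sets had an unadjusted p under 0.05, 288 of them higher and 741 lower in treated diabetic muscle. Without treated diabetic replicate 2, 102 probe sets passed, and without treated normal replicate 1, 3 did; none of the 7 was among them. Of the 7, Spock2 and Lox rc_AI234060_s_at had an unadjusted p under 0.05, and the exact two-sided permutation test over the 252 assignments of the 10 arrays, whose smallest p is 0.00794, was under 0.05 for the same 2.

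Spp1 showed a difference of -0.09 ± 0.32 (adjusted p = 0.908 by limma; exact permutation p = 0.778), with a 95% interval from -0.79 to 0.60, that is from 0.577-fold to 1.52-fold. Only 2 treated diabetic and 1 treated normal array were above the 40th percentile for Spp1, so this value is read near background and shows little about a difference. Thbs4 showed -0.12 ± 0.52 (adjusted p = 0.927 by limma; exact permutation p = 0.849), with an interval from -1.26 to 1.01, or 0.417-fold to 2.02-fold. Lox S77494_s_at showed -0.17 ± 0.31 (adjusted p = 0.815 by limma; exact permutation p = 0.563), with an interval from -0.85 to 0.51. Lox S66184_s_at showed 0.18 ± 0.35 (adjusted p = 0.824 by limma; exact permutation p = 0.619). The signs of the Spp1, Thbs4 and both of these Lox values were not stable: each turned under at least 1 alternative scaling, covariate or left-out array.

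The Spock2 mean was 1.87-fold higher in treated diabetic than in treated normal muscle, 0.90 ± 0.31, with a 95% interval from 0.22 to 1.58. All 5 treated diabetic arrays lay above all 5 treated normal arrays, an arrangement seen in 1.26% of genes. The exact permutation p was 0.00794, the smallest these arrays can give, and the limma p was 0.0134, or 0.208 after adjustment over all probe sets, so the difference did not pass. Without treated diabetic replicate 4, at 2693.6 the highest of its group, the difference was 0.62. Lox rc_AI234060_s_at went the other way, -0.70 ± 0.28, 1.62-fold lower in treated diabetic muscle (limma p = 0.0267, adjusted p = 0.242; exact permutation p = 0.0159), and 4 of the 5 treated diabetic arrays were below all treated normal arrays. Lox rc_AA875582_at, above the 40th percentile in 1 treated diabetic and 2 treated normal arrays, was too near background for its test to be read.

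Markers of other cells were read in the same 10 arrays, and their part in the Spock2 difference was not tested. All 8 skeletal fibre markers had an unadjusted limma p under 0.05 and were higher in treated diabetic muscle, with a median of 0.96 (0.081 after quantile normalization); 0 passed after adjustment. Their summed signal ran from 945363 to 2102210 in the diabetic group and from 557361 to 951329 in the normal one. Of 5 adipocyte markers 3 were higher at an unadjusted p under 0.05 and 0 passed, with a median of 0.72 (0.064 with the 3' to 5' ratios as covariates). The 12 macrophage and leukocyte markers had a median of -0.0040 and none reached an unadjusted p under 0.05. At that level 1 fibroblast marker, S100a4 (1.02), and 1 nerve marker, S100b (1.80), were higher. Lower were 1 endothelial marker, Pecam1 (-1.59), and 1 developing fibre marker, Myod1 (-0.75). Tendon and smooth muscle markers had 0 at that level, and no marker of any list passed after adjustment.

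**Figure D3:**
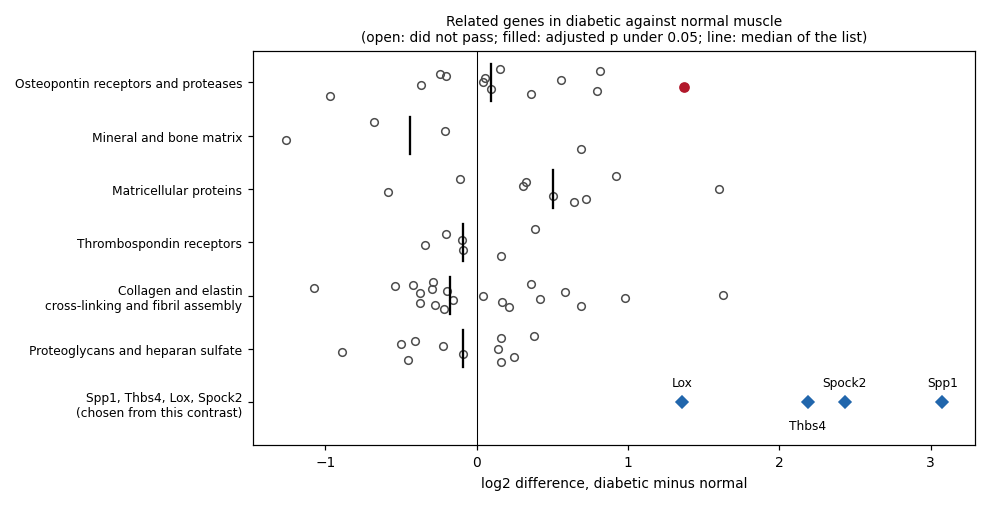
Log2 difference between diabetic and normal muscle (x axis) for the tested genes of 6 lists of related genes; open circles did not pass, the filled circle (Plat) passed an adjusted p of 0.05, short lines are list medians, and diamonds mark the 4 genes chosen from this comparison. The list medians lie between -0.44 and 0.50, and the 4 diamonds between 1.36 and 3.08.

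Genes listed as related to these 4 mostly did not pass the test between diabetic and normal muscle, and nor did most genes. Over all 3582 genes 1.34% were called higher and 0.726% lower in that comparison. At an unadjusted limma p under 0.05, 551 of 6027 probe sets were higher and 456 lower. Between treated and untreated diabetic muscle 529 were higher and 456 lower at that level. In the list around osteopontin, mainly receptors, proteases and protease inhibitors, 13 of 22 genes were tested and 1 passed. Being listed does not mean that a gene acts on osteopontin. The gene that passed, Plat, tissue plasminogen activator, was higher by 1.37 ± 0.33, or 2.58-fold (adjusted p = 0.0433 by limma). The median of the 13 was 0.098, beside -0.042 over all genes. In treated against untreated diabetic muscle Plat stood at -1.24 ± 0.33 (adjusted p = 0.103), and 0 of the 13 passed, and the unadjusted p was under 0.05 for 1 higher and 4 lower. Leaving out any of 7 of the 10 arrays of the first comparison, normal replicates 3, 4 and 5 and diabetic replicates 1, 3, 4 and 5, ended the call of Plat, with an adjusted p of up to 0.129. The metalloprotease inhibitors Timp1 and Timp3 stood at 0.79 ± 0.31 (adjusted p = 0.197) and -0.97 ± 0.31 (adjusted p = 0.117), and the gelatinase Mmp2 at 0.56 ± 0.30 (adjusted p = 0.349).

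Of the other matricellular proteins, the family to which osteopontin and the thrombospondins belong, 0 of 9 tested passed by limma, and the unadjusted p was under 0.05 for 2 higher and 0 lower, and their median was 0.50. Postn, periostin of wound and tendon matrix, stood at 1.60 ± 0.57 (adjusted p = 0.149) and at -1.55 ± 0.57 after vanadyl in diabetic muscle (adjusted p = 0.202). The Spock2 relatives Sparc and Sparcl1 stood at -0.59 ± 0.30 (adjusted p = 0.322) and 0.50 ± 0.24 (adjusted p = 0.289), and the proteoglycan Vcan at 0.64 ± 0.35 (adjusted p = 0.367).

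Among genes of collagen and elastin cross-linking and fibril assembly, 0 of 20 passed by limma, and the unadjusted p was under 0.05 for 3 higher and 0 lower. Loxl1, a second lysyl oxidase that acts on elastin, stood at 0.98 ± 0.34 (adjusted p = 0.138), and at -0.99 ± 0.34 after vanadyl in diabetic muscle (adjusted p = 0.172). Plod2, a lysyl hydroxylase of collagen telopeptides, stood at 0.69 ± 0.27 (adjusted p = 0.194), and the fibril proteoglycan Fmod at 1.63 ± 0.75 (adjusted p = 0.273). Col3a1, the chain of type III collagen, was on the negative side at -1.07 ± 0.60 (adjusted p = 0.378). The median of the list was -0.17, and 0.023 with the 3' to 5' ratios as covariates, so no direction is given for it.

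Thrombospondin receptors (6 tested), mineral and bone matrix genes (4 tested) and proteoglycans with heparan sulfate enzymes (11 tested) had 0 genes past the threshold, and 0 at an unadjusted p under 0.05, between diabetic and normal muscle (limma). Among them Cd47, a receptor of thrombospondins, stood at -0.34 ± 0.25 (adjusted p = 0.508 by limma). Cacna2d1, the calcium channel subunit that binds thrombospondins, stood at 0.38 ± 0.38 (adjusted p = 0.64). Of the mineral genes 3 of 4 were negative, with a median of -0.44 (0.086 with the 3' to 5' ratios as covariates), so no direction is given for them. Enpp1 stood at -1.26 ± 0.61 (adjusted p = 0.304) and Mgp, an inhibitor of calcification, at 0.69 ± 0.38 (adjusted p = 0.366). Of the proteoglycan genes 6 of 11 were negative, with a median of -0.087. Ndst1 stood at -0.89 ± 0.50 (adjusted p = 0.373) and Agrn, the basement membrane proteoglycan agrin, at 0.38 ± 0.23 (adjusted p = 0.425). In treated diabetic against treated normal muscle and in treated against untreated normal muscle, 0 genes of any of the 6 lists passed. At an unadjusted p under 0.05, the first of these had 3 lower genes of the osteopontin list and 2 lower thrombospondin receptors. It also had 1 lower cross-linking gene and 1 higher matricellular gene, and the second had 1 lower proteoglycan gene.

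Some markers of other cells differed between the same groups as the 4 genes, and their part in the results was not tested. In whole muscle, more cells of a type and more RNA per cell cannot be told apart. Of 12 macrophage and leukocyte markers tested, 5 were called higher in diabetic than in normal muscle and 0 lower, with a median of 1.53. Over all genes 1.34% were called higher and 0.726% lower, with a median of -0.042. Called or not, 9 of the 12 were positive and 3 negative. Coro1a, an actin regulator of leukocytes, was higher by 3.38 ± 0.74 on the log2 scale (adjusted p = 0.0244), but lay above the 40th percentile in only 5 of the 20 arrays, so no fold is given. That is the fewest the filter admits, and its median percentile was 19.7. It may thus have entered the test only through the group where it was high, which limits its call. The lysozyme Lyz2 was 5.99-fold higher (2.58 ± 0.45, adjusted p = 0.00505), the Fc receptor Fcgr2b 3.15-fold (1.66 ± 0.27, adjusted p = 0.00374), the galectin Lgals3 2.82-fold (1.49 ± 0.25, adjusted p = 0.00374) and the chemokine Ccl2 2.79-fold (1.48 ± 0.32, adjusted p = 0.0208; limma for all 5). After vanadyl in diabetic muscle 3 of the 12 were called lower, beside 0.558% of all genes. They were Lyz2 by 2.28, Fcgr2b by 1.32 and Ccl2 by 1.48 on the log2 scale (limma adjusted p = 0.0219, 0.0335 and 0.0387). Called or not, 10 of the 12 were negative and 2 positive there, with a median of -1.34, beside 0.10 over all genes. The macrophage markers Itgam and Csf1r did not pass the filter, and were above the 40th percentile in 0 and 1 of the 20 arrays.

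The macrophage score, the mean log2 distance of these 12 markers from their normal means, was 2.12, 0.74, 2.13, 1.03 and 0.48 in diabetic replicates 1 to 5. Normal arrays ran from -0.27 to 0.28, treated diabetic arrays from -0.31 to 0.57, and treated normal arrays from 0.13 to 0.35. Diabetic arrays had a summed signal of the 12 from 25317 to 103157. The sum was 11628 to 18564 in normal arrays, 11387 to 23732 in treated diabetic arrays and 16507 to 22377 in treated normal arrays. Lox S66184_s_at was highest in diabetic replicates 1 and 3, the same arrays that had the highest macrophage scores, and Spp1 was highest in replicate 4. Thbs4 did not follow this order: diabetic replicate 5, with the lowest macrophage score of its group, read 14533.1, next to the 14768.5 of replicate 1. Nor did Lox S77494_s_at and Spock2, although replicate 1 was highest for both. Their replicate 5 read 2232.4 and 1697.7, above replicate 3 at 2029.1 and 1445.5. Without diabetic replicates 1 and 3 the macrophage median was 1.08 and 0 of the 12 passed; only 3 probe sets of all 6027 then did.

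**Figure D4:**
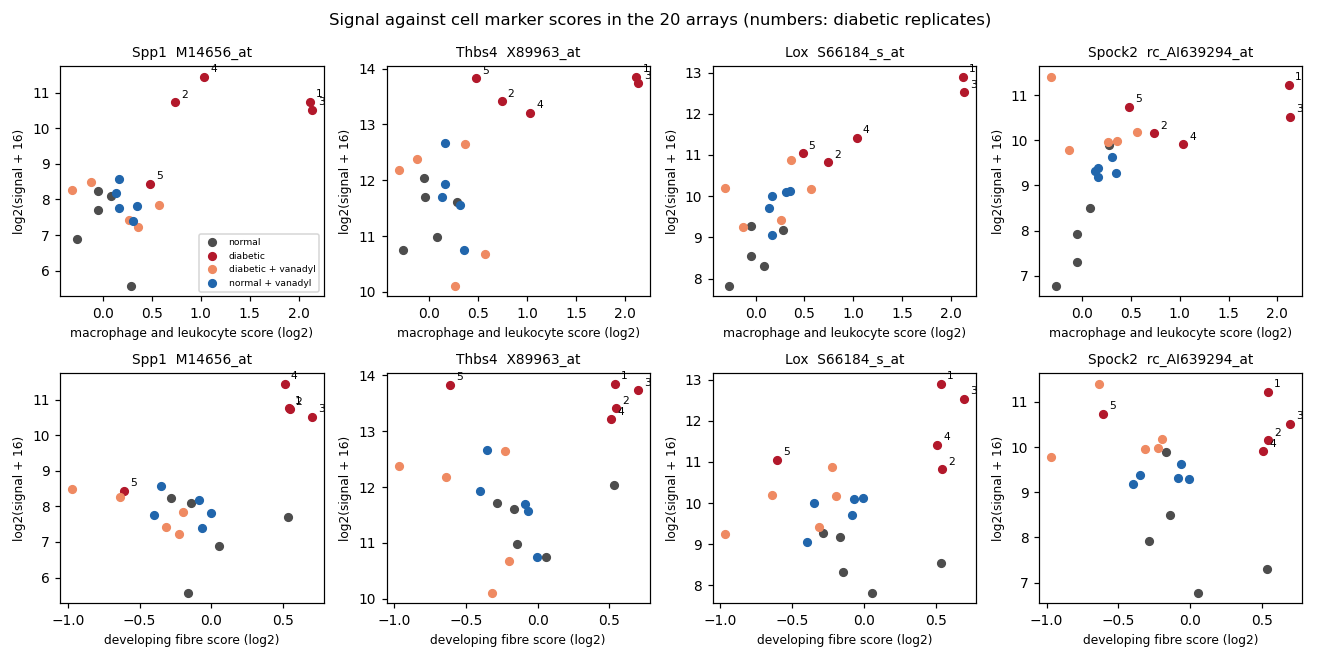
Log2(signal + 16) of 4 probe sets (y axis) against the macrophage and leukocyte score (top) and the developing fibre score (bottom), both in log2 units relative to normal muscle, in the 20 arrays; numbers mark diabetic replicates. Diabetic replicate 5, with the lowest Spp1 signal of its group (330.5), also has the group's lowest scores, 0.48 and -0.61, while its Thbs4 signal is 14533.1. Lox is shown by S66184_s_at, its probe set with the largest difference.

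Of 7 markers of developing or regenerating fibres, 1 was higher in diabetic muscle: Myh3, embryonic myosin, rose by 2.57 ± 0.52, or 5.92-fold (adjusted p = 0.0155 by limma), and after vanadyl it fell by 2.34 (adjusted p = 0.0471). The score of the 7 was 0.54, 0.54, 0.70, 0.51 and -0.61 in diabetic replicates 1 to 5, and replicate 5 was also the array with the lowest Spp1 of its group. Diabetic arrays had a summed signal of the 7 from 18158 to 131612, and normal arrays from 26111 to 79406. With vanadyl the sums were 15560 to 23963 in the diabetic and 20839 to 28438 in the normal group. The list median was -0.084 (0.18 with the 3' to 5' ratios as covariates), with 3 of the 7 positive and 4 negative, so no direction is given for it. After vanadyl in diabetic muscle 5 of the 7 were negative and 2 positive, with a median of -0.39. Actc1 stood at -0.47 ± 0.76 between diabetic and normal muscle and at -2.62 ± 0.76 after vanadyl (adjusted p = 0.122 by limma for the latter). Leaving out normal replicate 5, diabetic replicate 1 or diabetic replicate 3 ended the call for the rise of Myh3, and its fall after vanadyl was lost without any array of that comparison except diabetic replicate 5.

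Markers of other cell types were counted in the same way between diabetic and normal muscle, where 1.34% of all genes were called higher and 0.726% lower. Among 5 adipocyte markers 3 were higher, Cidea by 2.18 ± 0.33 (adjusted p = 0.00204), Fabp4 by 1.86 ± 0.44 (adjusted p = 0.0344) and Lipe by 1.09 ± 0.27 (adjusted p = 0.0446), and their summed signal was 32107 to 52595 in diabetic against 14789 to 26381 in normal arrays. With vanadyl the sums were 22985 to 34465 in the diabetic and 18801 to 24530 in the normal group. Between diabetic and normal muscle Cfd stood at 1.55 ± 0.50 (adjusted p = 0.114 by limma) and Lep at -0.33 ± 0.25 (adjusted p = 0.522). Plin1 did not pass the filter. After vanadyl in diabetic muscle Cidea fell by 2.29 (adjusted p = 0.00299 by limma). Of 4 endothelial markers Esm1, a proteoglycan of activated endothelium, was 3.88-fold higher (1.96 ± 0.31, adjusted p = 0.00257 by limma) and fell by 2.08 after vanadyl (adjusted p = 0.00299). The others did not pass between diabetic and normal muscle: Kdr stood at 0.39, Flt1 at -0.081 and Pecam1 at -0.28. The list median was 0.15, and Vwf did not pass the filter. Of 8 fibroblast markers S100a4 was higher (2.23 ± 0.53, adjusted p = 0.0348), while the list median was 0.20. Of 2 tendon, 5 smooth muscle, 3 nerve and 8 skeletal fibre markers none passed by limma, with 1, 1, 1 and 0 at an unadjusted p under 0.05. All 8 skeletal fibre markers were negative, with a median of -0.46 (-0.071 after quantile normalization). After vanadyl in diabetic muscle all 8 were positive, with a median of 0.69 (0.034 after quantile normalization). There 3 of the 8 had an unadjusted limma p under 0.05 and 0 passed. None of the 4 bone and cartilage markers on the array passed the filter on dim probe sets; Ibsp, Acan and Col2a1 were above the 40th percentile in 0 arrays and Bglap in 4, while osteopontin, also a bone protein, was above it in 9.

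The calls of several of these markers depend on the processing or on single arrays. With the 3' to 5' ratios as covariates, between diabetic and normal muscle 3 of 12 macrophage and 2 of 5 adipocyte markers passed. Among developing fibre markers, fibroblast markers and the osteopontin list 0 passed, so that the calls of Myh3, S100a4 and Plat ended. With quantile normalization the S100a4 call ended too, and 2 adipocyte markers passed. After vanadyl in diabetic muscle the fall of Myh3 did not pass under either, and 2 macrophage markers passed with quantile normalization. Cidea, Esm1, Fcgr2b, Lgals3 and Lyz2 stayed past the threshold between diabetic and normal muscle whichever of the 10 arrays was left out. Fabp4 lost its call without any of 6 arrays, Lipe without any of 7, S100a4 and Ccl2 without any of 5 and Coro1a without any of 4, diabetic replicates 1 and 3 being among them in each case. After vanadyl, Cidea and Esm1 kept theirs in all 10, while Ccl2 lost its call in 8, Fcgr2b in 7 and Lyz2 in 4, again including diabetic replicates 1 and 3.

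The genes whose signal followed each of the 4 most closely were listed by Pearson's r over the 20 arrays, as a description: the arrays share the group differences, and r with group means removed follows each in parentheses. For Spp1 they were Ankrd1, a stretch-induced muscle ankyrin protein (0.84, then 0.40), Esm1 (0.80, then 0.42), Lyz2 (0.79, then 0.31), Myh3 (0.77, then 0.35) and the transcription factor Cebpd (0.76, then 0.37). Ankrd1 was 12.3-fold higher in diabetic than in normal muscle (3.62 ± 0.53, adjusted p = 0.00162 by limma). For Thbs4 they were Kctd20 (0.78, then 0.48), the fibre protein Smpx (0.77, then 0.57), Synj1 (0.77, then 0.49), Esm1 (0.77, then 0.30) and the carnitine transferase Cpt1a (0.77, then 0.47). For Lox S77494_s_at they were the complement protease C1s (0.79, then 0.58), the cytokine Il33 (0.79, then 0.80), Lgals3 (0.78, then 0.30), the phospholipase Pla2g2a (0.78, then 0.58) and Serping1, the inhibitor of C1s (0.77, then 0.66). For Spock2 they were the early response factor Egr1 (0.80, then 0.61), Fabp4 (0.76, then 0.55), S100a4 (0.75, then 0.53), Myc (0.75, then 0.28) and the ribosomal protein gene Rpl35a (0.75, then 0.67). Esm1 was on the lists of both Spp1 and Thbs4; no other gene was on more than 1 list.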

How the data were processed

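Values are MAS5 signal intensities as deposited, 1 for each probe set of each array (the program is named by the submitters' processing notes, its version not given in the sources used here); rear-leg muscle poly(A) RNA was labelled per the labels' protocols. Trimmed means lay between 2503.4 and 2506.46, so the authors' scaling was kept. No detection calls are listed, so of 8799 probe sets the 59 controls and those above the array's 40th percentile in fewer than 5 of 20 arrays were left out, which left 6027. A platform annotation named genes: 7018 probe sets had 1 symbol, 308 several, and 1473 were not listed. Where a gene had several probe sets, the one of highest mean log2 signal was used, which gave 3582 genes.

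Group means of log2(signal + 16) came from limma 3.58.1 under R 4.3.3, using lmFit with eBayes on all 20 arrays; treated diabetic against treated normal muscle was fitted on its own 10 arrays. P-values were two-sided, Benjamini-Hochberg adjusted over 6027 probe sets, threshold 0.05. For the 4 genes, comparisons that share arrays with the choosing one carry no p. No genome build is stated for the arrays, so only RefSeq promoter windows have coordinates. The number of arrays limits the precision. No 2 arrays held identical values.

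The 4 genes, the gene lists and the marker lists were chosen with earlier results of these data known. Besides all probe sets of the 4 genes, the named genes are up to 4 per list with the smallest p in diabetic against normal muscle, those past the threshold, and the 5 with the highest correlation to each gene. The scripts were tested on simulated data. Alternatives tried were the constant added (1, or 16 times as large), quantile normalization, a replicate block, 3' to 5' ratios as covariates, no filter, all 20 arrays for the treated pair, and leaving out arrays. Leaving out diabetic replicates 1 and 3 together, and all alternatives for the lists, were added after seeing the data.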

Additional observations from a re-analysis of the deposited data

Results flagged for a closer look

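Of 28 groups of 5 arrays (7 probe sets in 4 groups), 1 had an array whose distance to its nearest neighbour took up more of the group's range than Dixon's 95% limit allows; chance flags about 1 in 20 groups. For Spock2, vanadyl-treated diabetic replicate 4 read 2693.6, the next array 1147.7, and the gap was 0.751 of the range. Without this array Spock2 was 0.62 higher (log2) in treated diabetic than in treated normal muscle, against 0.90 with it.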

How the results depend on the processing

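For the 7 probe sets, diabetic minus normal and treated minus untreated diabetic kept their direction in all 126 values each, treated minus untreated normal in 118 of 119, treated diabetic minus normal in 110 of 119 and treated diabetic minus treated normal in 111 of 126; none of the last passed by limma. Thbs4 in diabetic minus normal moved to 1.57 with the 3' to 5' covariates, and the cause was not tested. The sign of treated diabetic minus treated normal turned under quantile normalization for Spp1 (0.17), Thbs4 (0.076) and Lox S77494_s_at (0.044), with the covariates for Thbs4 (0.23) and Lox S77494_s_at (0.091), and without the 3 arrays of highest Gapdh ratio for Spp1 (0.013) and Thbs4 (0.25); the cause was not tested. Leaving out 1 array at a time, it ran from -0.26 to 0.065 for Spp1, -0.39 to 0.25 for Thbs4, -0.043 to 0.36 for Lox S66184_s_at, -0.37 to -0.046 for Lox S77494_s_at and 0.62 to 1.02 for Spock2. Spock2, at 0.90, had an unadjusted p under 0.05 by both the exact permutation test and limma; after adjustment over all probe sets limma gave 0.208, and 0.132 to 0.895 over the alternatives.

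Counts of probe sets past the threshold moved more. Diabetic minus normal had 110, and 32 with the covariates, 464 without the 3 arrays of highest Gapdh ratio, 62 with no filter, 3 without diabetic replicates 1 and 3, and 24 to 247 with 1 array left out (fewest without diabetic replicate 3 or 1, most without normal replicate 1). Treated minus untreated diabetic had 30, and 50 with a constant 16 times as large, 19 with no filter, 1 without diabetic replicates 1 and 3, and 10 to 54 with 1 array left out (fewest without diabetic replicate 3, most without treated diabetic replicate 2). Treated minus untreated normal had 4, and 2 with 1 added, 0 with quantile normalization, 2 without the 3 arrays, 0 with no filter, and 0 to 4 with 1 array left out. Treated diabetic minus treated normal had 0, and 0 to 102 with 1 array left out. With the replicate block, treated minus untreated normal had 0. The replicate numbers did not clearly pair the arrays, but some pairing was not excluded. Deviations from group means correlated over 0.1 in 11 of 30 same-numbered pairs and in 33 of 120 other pairs. The medians were 0.070 and 0.0038 and the highest values 0.62 and 0.41, and 6 of 20 arrays correlated best with their own number. Without diabetic replicates 1 and 3, 0 genes of any list passed in either comparison with untreated diabetic muscle. Signals near background, as for Spp1 outside diabetic muscle and Lox rc_AA875582_at, limit those values most.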
